A study of Homo sapiens with 6 samples.

Results

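The region of human chromosome 9 that holds MTAP, CDKN2A, CDKN2B and DMRTA1, together with the cluster of interferon genes beside it, was described in Hi-C maps of LNCaP, an established line of prostate cancer cells. The region was chosen by position, as the 60 bins of 40 kb in chr9:20800001-23200000 (hg19), out of 59714 autosomal bins with usable coverage in both maps. All 60 were usable in both. LNCaP cells had been transfected with 20 nM of a control siRNA or of siRNA against CTCF for 144 h, with a repeat transfection after the first 72 h. The control map pooled 2 deposited samples, Rep1 and Rep2, and the CTCF siRNA map pooled 4, Rep1, Rep2, Rep1.1 and Rep2.1. The labels do not say whether the last 2 are further sequencing of the same libraries or separate cultures. Pooling meant that there was 1 map for each condition, no value for any single library and no test between conditions. Every interval below covers counting error only, and a difference between the maps cannot be told apart from a difference between their libraries. Hi-C counts contacts between pieces of DNA and measures neither RNA nor protein, so neither the loss of CTCF nor the identity of the cells by marker genes could be checked in these values.

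CDKN2A encodes the cell cycle inhibitor p16INK4a and, in another reading frame, ARF, which stabilises p53. CDKN2B encodes the related inhibitor p15INK4b, and both inhibitors act on the kinases CDK4 and CDK6 ahead of the retinoblastoma protein. MTAP, a salvage enzyme for methylthioadenosine, lies next to them and is often deleted with them in tumours. DMRTA1 encodes a protein of the DM domain family, and CDKN2B-AS1 (ANRIL) is a long non-coding RNA that runs across CDKN2B. The type I interferon genes are short genes of high sequence similarity that encode antiviral cytokines. CTCF is a zinc finger protein that binds DNA and is known to sit at many edges of topologically associated domains (TADs), stretches of chromosome that contact themselves more than their surroundings.

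In the GENCODE annotation on hg19, the 16 interferon genes of the list used here lay between chr9:21077103 and chr9:21482312. MTAP, on the plus strand, began at chr9:21802635. CDKN2A, chr9:21967751-21995300, and CDKN2B, chr9:22002902-22009304, were both on the minus strand, and DMRTA1, chr9:22446823-22455739, was on the plus strand. The region held 3 TAD edges, and each is named here by its neighbour. The interferon edge at chr9:21180000 lay between IFNA21 and IFNA4, the MTAP edge at chr9:21780000 lay 22.6 kb before MTAP, and the DMRTA1 edge at chr9:22460000 lay 4.26 kb beyond DMRTA1. IFNA21, IFNA4 and DMRTA1 share a 40 kb bin with their edge, so the maps do not resolve on which side they lie.

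Since CTCF recognises a DNA motif, the reference sequence was searched on both strands for core letters of that motif, CCA, any 2 bases, AGG, any base and GGC. There were 10 matches, in 8 of the 60 bins (13.3%), against 26.6% of 67115 autosomal bins. A match is a run of letters and not a measured binding site. The matches nearest to the edges are printed because the TADs of the region meet there, with the matched letters in capitals and each run read on the strand of its match. The match nearest to the interferon edge was at chr9:21210890-21210919, plus strand, between genes and 30.9 kb to the right of the edge. The match nearest to the MTAP edge was at chr9:21813148-21813177, plus strand, in an intron of MTAP and 33.2 kb to the right of the edge. Both matches at the DMRTA1 edge fell in the bin of the edge itself, at chr9:22455501-22455530 on the minus strand, in an untranslated region of DMRTA1, and at chr9:22457618-22457647 on the plus strand, between genes.
Interferon side: gctgctctaCCAAAAGGTGGCcagactgtt
MTAP intron: gctgtggagCCAGCAGGTGGCgacattggc
DMRTA1 untranslated region: gagagactgCCACGAGGGGGCaaagataat
Beyond DMRTA1: atcaacctgCCACCAGGTGGCtggctggtt
The bins of the interferon and MTAP edges held no match. The other 6 matches were in MTAP (3) or to the right of the interferon edge (3).

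No bin of the region was empty in either map, and CDKN2A, CDKN2B and MTAP were covered in both. Coverage here is the number of contacts of a bin with other places on chromosome 9 and within itself, over the median of that number for usable bins of the chromosome, 397 in the control map and 1551 in the CTCF siRNA map. The bin of the CDKN2A start had 319 contacts in the control map, 0.804 times the median, and 1765 in the CTCF siRNA map, 1.14 times the median. The bin of CDKN2B had 300 contacts (0.756 times) and 1185 (0.764 times). The 4 bins of MTAP averaged 1.04 and 0.955 times the median, and the bin of DMRTA1 0.627 and 0.437 times. With the values as deposited, position factors left in, the order of the maps at CDKN2A turned, at 1.54 times the median in the control map and 1.45 times in the CTCF siRNA map, while DMRTA1 was lower in the CTCF siRNA map on both scales.

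Over the region, mean coverage was 0.912 times the median in the control map and 0.653 times in the CTCF siRNA map. In 33 bins relative coverage was lower in the CTCF siRNA map by at least 0.5 on the log2 scale, and in 1 bin it was higher by that much, beside 18% and 26.8% of 59714 autosomal bins, each against the median of its own chromosome. The bins of CDKN2A and CDKN2B together were the only one of 8 stretches of the region in which the relative coverage was higher, by 0.29 (log2), and with the values as deposited it was lower there too, at 1.15 times the median against 1.40 times. To the right of DMRTA1 it fell by 0.74. Across the 60 bins the log2 ratio of the maps followed GC content, with a Pearson correlation of 0.75 across bins that share their libraries, and the median GC content of 37.2% lay below the 39.8% of autosomal bins. Coverage itself followed the number of BglII cutting sites in a bin, with correlations of 0.86 in the control map and 0.83 in the CTCF siRNA map. The part of GC content in the differences below was not tested, so contacts are given also after balancing, an iterative scaling that gives every bin the same total. Intervals of balanced values are those of the counts moved to the balanced value, and cover no error of the balancing.

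**Figure D1:**
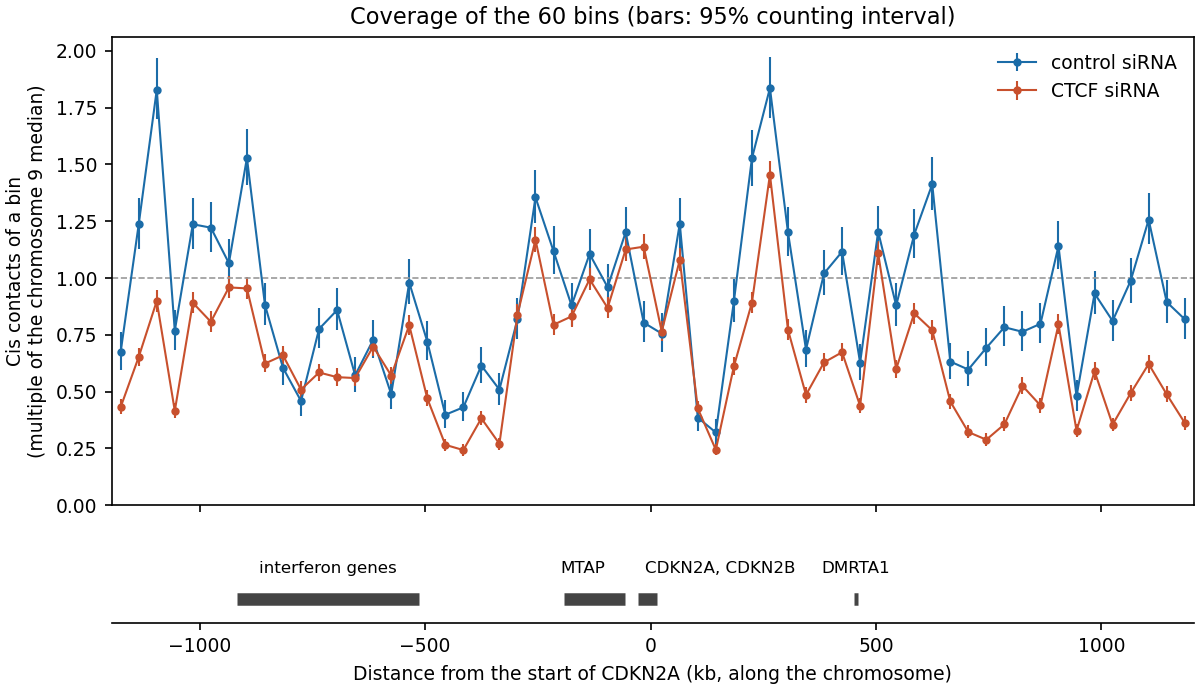
Cis contacts of each of the 60 bins as a multiple of the chromosome 9 median (y axis) by distance from the start of CDKN2A in kb (x axis), for the control siRNA map (blue) and the CTCF siRNA map (orange), with exact Poisson 95% counting intervals. The CTCF siRNA map lies below the control map over most bins, with means of 0.653 and 0.912. It lies above it at CDKN2A (1.14 against 0.804), an order that turned with the values as deposited.

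All 3 TAD edges of the region were at the same positions in the lists of both conditions. By listed position, the interferon genes were split by the interferon edge, with IFNB1, IFNW1 and IFNA21 to its left and the other 13 to its right. MTAP, CDKN2A and CDKN2B shared a TAD of 680 kb between the MTAP edge and the DMRTA1 edge, and that TAD was listed unchanged in the CTCF siRNA list. DMRTA1 was also inside it by listed position, but lies in the bin of its edge. To its left, the control list held a TAD of 600 kb with 14 coding genes, from the interferon edge to the MTAP edge. The CTCF siRNA list held no TAD there, so 13 of the 16 interferon genes lay in a TAD in the control list and in none in the CTCF siRNA list. Of 2763 autosomal TADs of the control list, 1.56% were overlapped by no TAD of the CTCF siRNA list. In 3 of them, 0.109% of all, both edges were at exactly the same positions in that list, and the TAD of the interferon genes was among these 3. An exact match is stricter than the 40 kb used for shared edges. This class was not planned and has the form found at this TAD, so its share is a description. The outer TADs changed size at ends outside the region, from 1720 to 1320 kb on the left and from 1360 to 1400 kb on the right.

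The strength of an edge was measured as an insulation value, the log2 ratio of contacts across a bin to contacts within the 400 kb on either side of it, each over the number expected at the same distances on chromosome 9. Low values mark places that few contacts cross. Of the 3 edges, the interferon edge had the largest rise. In the bin of that edge, which holds IFNA21 and IFNA4, it was -1.52 in the control map and -0.23 in the CTCF siRNA map, a rise of 1.30 ± 0.15 (counting SD). Contacts across the bin were 0.271 times those expected in the control map (115 contacts) and 0.368 times in the CTCF siRNA map (739 contacts), while contacts within the flanks were 0.779 and 0.430 times those expected. The lower flanking contacts were shared by the whole region, with changes of -1.17 to -0.36 (log2) around its 60 bins, and after balancing contacts within the part of the left TAD changed by 0.05 and within the 600 kb TAD by -0.28. The next bin to the left, that of IFNW1, had the largest rise of the region, 1.37 ± 0.16, from -1.59 to -0.22, and 99.7% of autosomal bins had a lower change.

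Of the 16 interferon genes, 9 started in bins whose insulation value rose by at least 0.5, none in a bin where it fell by as much, and 7 in bins that did neither. The 9 genes shared 5 bins around this edge, and 12.8% of autosomal bins rose by as much. Those 7 were IFNA5 and the genes to its right (IFNA6, IFNA13, IFNA2, IFNA8, IFNA1 and IFNE). The rise was 1.25 ± 0.15 in the bin of IFNA7, IFNA10, IFNA16 and IFNA17, and 0.47 ± 0.13 in that of IFNA5. At IFNE, at the far end of the cluster, the value moved by -0.33 ± 0.11. At IFNB1, the outermost of the 9, the rise was 0.50 ± 0.12, which is not distinguishable from that at IFNA5 by the counting SD. Since the flanks are 400 kb long and genes share bins, neighbouring values are not separate measurements.

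At the MTAP edge, which separates MTAP from the interferon side, the value was -1.32 in the control map and -0.49 in the CTCF siRNA map, a rise of 0.83 ± 0.15. In the bin of the MTAP start, directly to the right, it rose by 0.75 ± 0.13, from -1.17 to -0.42. Contacts across the bin of the edge were 0.313 times those expected in the control map and 0.379 times in the CTCF siRNA map. Contacts within its flanks were 0.780 and 0.532 times those expected. At the MTAP start, contacts across were 0.391 and 0.405 times those expected, and contacts within the flanks 0.880 and 0.542 times. Both bins were still below 0 in the CTCF siRNA map. With flanks of 800 kb the rises were 0.47 at the edge and 0.38 at the MTAP start, under 0.5. At the CDKN2A start the value was 0.56 in the control map and 0.13 in the CTCF siRNA map, a change of -0.42 ± 0.09. At CDKN2B it was 0.38 and 0.34, a change of -0.04 ± 0.09. Values at CDKN2A and CDKN2B, which sit inside the 680 kb TAD, were thus above 0 in both maps with these flanks, but with flanks of 200 kb they were -0.22 and -0.18 in the CTCF siRNA map. For CDKN2A and CDKN2B the change hung on the flank length, with -0.79 and -0.55 at 200 kb and 0.13 and 0.31 at 800 kb.

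The DMRTA1 edge differed from the others. It was shallow in the control map, at -0.32, and lower in the CTCF siRNA map, at -0.55, a change of -0.23 ± 0.11. Of autosomal bins, 30.6% had a lower value in the control map and 20.3% had a lower change, so neither was rare. In the next bin to the right, past the edge, the value went from -0.31 to -0.63, the lowest of the region in the CTCF siRNA map. The DMRTA1 edge was thus the shallowest of the 3 in the control map. In the CTCF siRNA map its value and the -0.49 of the MTAP edge lay within their counting SD of about 0.06, and their order turned with flanks of 200 kb (-0.67 and -0.75). With flanks of 800 kb the change at the DMRTA1 edge was 0.12. This was also the only edge of the 3 whose own bin held the CTCF letters printed above. The bins directly to the right of the bins of the other edges held such letters too. These maps hold no measure of binding, and the CTCF ChIP-seq that the study made in LNCaP cells was not used here. A link between letters and the change was not tested.

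Between CDKN2B-AS1 and DMRTA1 the control map held a further minimum that neither list called as an edge. In the bin chr9:22240001-22280000 the value was -0.77 in the control map and 0.26 in the CTCF siRNA map, a rise of 1.04 ± 0.11. Contacts across it were 0.553 and 0.669 times those expected, and contacts within its flanks 0.946 and 0.558 times. This bin, chosen after its values were seen, had the highest coverage of the region in both maps (1.84 and 1.46 times the median) and 20 BglII sites, a number reached by 2 other bins. In the CTCF siRNA map the value was above 0 in every bin of chr9:21880001-22360000, from inside MTAP to before DMRTA1. In the control map it was below 0 in the last 4 bins of this stretch. The ends of the stretch were set by these values. In its last bin the value was -0.16 ± 0.09 in the control map and 0.02 ± 0.05 in the CTCF siRNA map, the latter within its counting SD of 0.

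Over all 60 bins, the value rose by at least 0.5 in 11 and fell by at least 0.5 in 2, both between the interferon genes and MTAP. Among 58287 autosomal bins the shares were 12.8% for a rise and 3.77% for a fall. The falls of the region numbered 10 with flanks of 200 kb, where 6.22% of autosomal bins fell as much, and 0 with balanced counts, where 4.06% did. The median change of the region was -0.01, beside 0.02 over the autosomes. The 11 bins fell in 3 runs, of 6 bins at the interferon edge, 2 at the MTAP edge and 3 around the control minimum beyond CDKN2B-AS1. At boundaries of the control list that were shared with the CTCF siRNA list, 36.3% of 1373 rose by at least 0.5, with a median change of 0.35. Of the 3 edges of the region, 2 rose by that much and the third did not. With flanks of 800 kb the rise at the MTAP edge was 0.47, and the interferon edge alone passed 0.5.

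**Figure D2:**
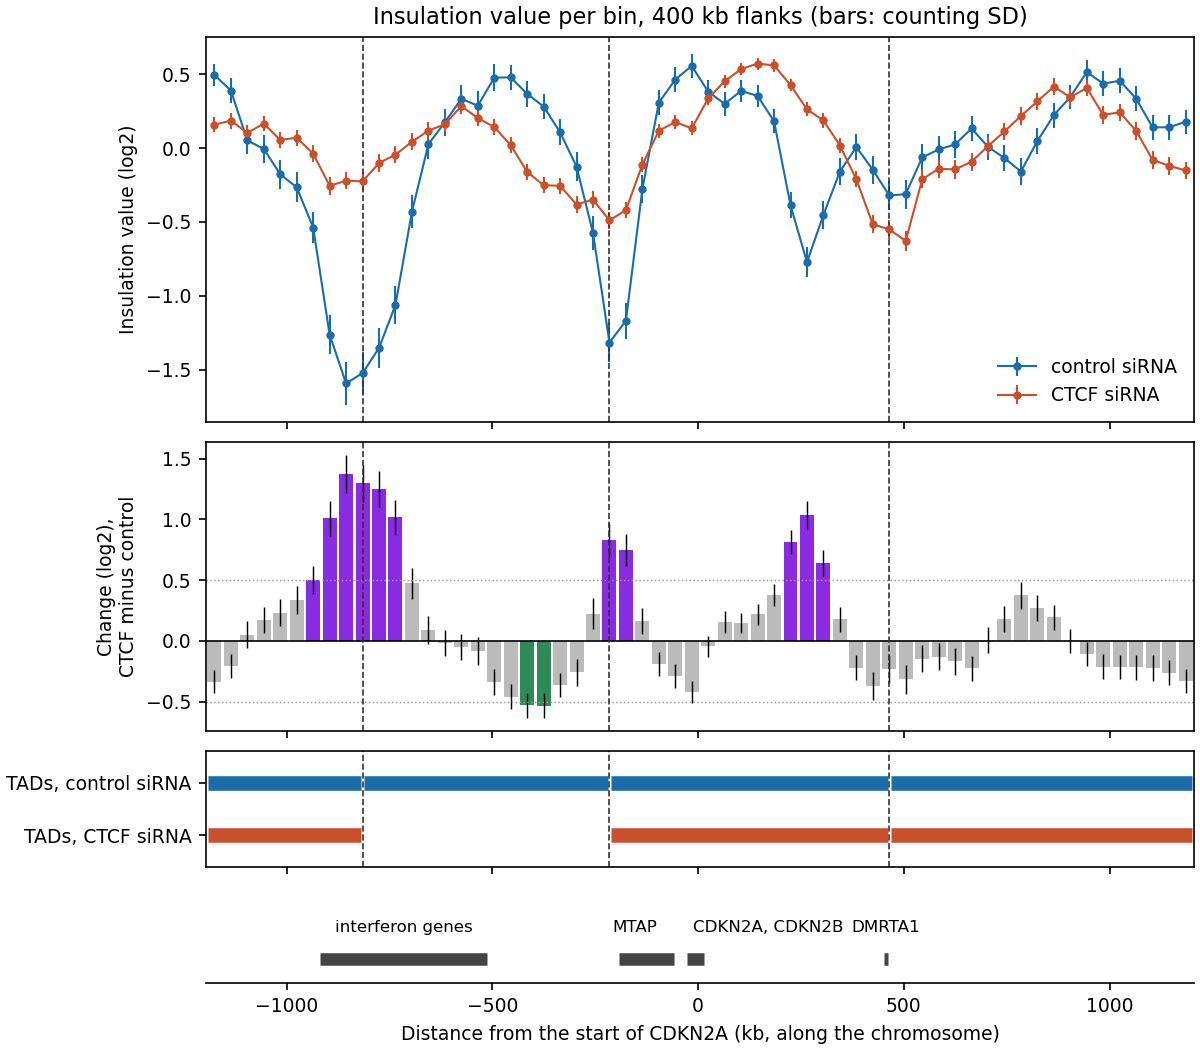
Insulation value of each bin (top, log2, with counting SD), its change from control siRNA to CTCF siRNA (second panel, purple for a rise and green for a fall of at least 0.5), the TADs of each list (bars) and the genes, by distance from the start of CDKN2A in kb. Dashed lines mark the 3 TAD edges; the interferon edge rose by 1.30, the MTAP edge by 0.83 and the DMRTA1 edge changed by -0.23.

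The authors' TAD lists rest on the balance of upstream and downstream contacts of a bin. That balance, taken here within 2 Mb, also moved near the interferon and MTAP edges. In the bin to the right of the interferon edge, which holds IFNA7 to IFNA17, 66.2% ± 4.10 (binomial SD) of contacts were downstream in the control map and 51.7% ± 2.05 in the CTCF siRNA map. At chr9:21240001-21280000 the share went from 68.9% ± 3.09 to 47.3% ± 1.95. The bias of the left end of the 600 kb TAD towards its inside was thus no longer seen. At the MTAP start the share was 84.6% ± 2.27 in the control map and 72.2% ± 1.48 in the CTCF siRNA map, so MTAP still faced CDKN2A and CDKN2B in both. To the right of the DMRTA1 edge it was 67.6% ± 2.64 and 59.6% ± 1.45. At CDKN2B the share turned, from 45.1% ± 3.48 to 62.5% ± 1.77, while at CDKN2A it was 46.6% ± 3.37 and 45.4% ± 1.41.

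Contacts between named genes were few, and most of their changes lay within counting error. MTAP and the bins of CDKN2A and CDKN2B had 145 contacts in the control map, 1.27 times those expected at their distances (95% interval 1.08 to 1.5). In the CTCF siRNA map they had 515, 1.02 times those expected (0.93 to 1.11). The log2 ratio was -0.33, with an interval of -0.60 to -0.05, and -0.60 (-0.87 to -0.33) after balancing. At places of the same shape over the autosomes, 52.1% of 59288 changed by at least 0.5 in either direction and 34% fell by as much, so a ratio of -0.33 from counts was common. No such share is given for the balanced -0.60. With the decay of all autosomes as the expectation the ratio from counts was -0.24 (-0.51 to 0.04), an interval that held 0.

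The other 5 pairs had intervals that held 0 in counts and in balanced counts. With the values as deposited, 2 of them lay below 0, the interferon genes with MTAP at -0.81 (-1.17 to -0.44) and with DMRTA1 at -1.70 (-2.72 to -0.60). The interferon genes with MTAP changed by -0.25 (-0.61 to 0.12), on 78 and 320 contacts. The interferon genes with CDKN2A and CDKN2B changed by 0.19 (-0.46 to 0.90), on 23 and 129 contacts. The MTAP edge lies between these genes, and no rise in the contacts between them was seen beyond counting error. The stretch between the interferon genes and MTAP lies nearer and includes the bin of the MTAP edge. Its contacts with MTAP changed by 0.31 (-0.06 to 0.69) from counts and by 0.66 (0.30 to 1.04) after balancing. With CDKN2A and CDKN2B they changed by 0.47 (-0.17 to 1.17) from counts and by 0.75 (0.11 to 1.45) after balancing. For this stretch no share over the autosomes is given. CDKN2A and CDKN2B with DMRTA1 changed by 0.17 (-1.10 to 1.72), on 6 and 33 contacts, and no interval here was wider. MTAP with DMRTA1 changed by 0.58 (-0.57 to 2.0), on 7 and 51 contacts, and the interferon genes with DMRTA1 by -1.01 (-2.03 to 0.09), on 12 and 29 contacts. At places of the same shape over the autosomes, 64.9% and 63.9% changed by at least 0.5 in either direction, so changes of this size were usual for so few contacts.

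**Figure D3:**
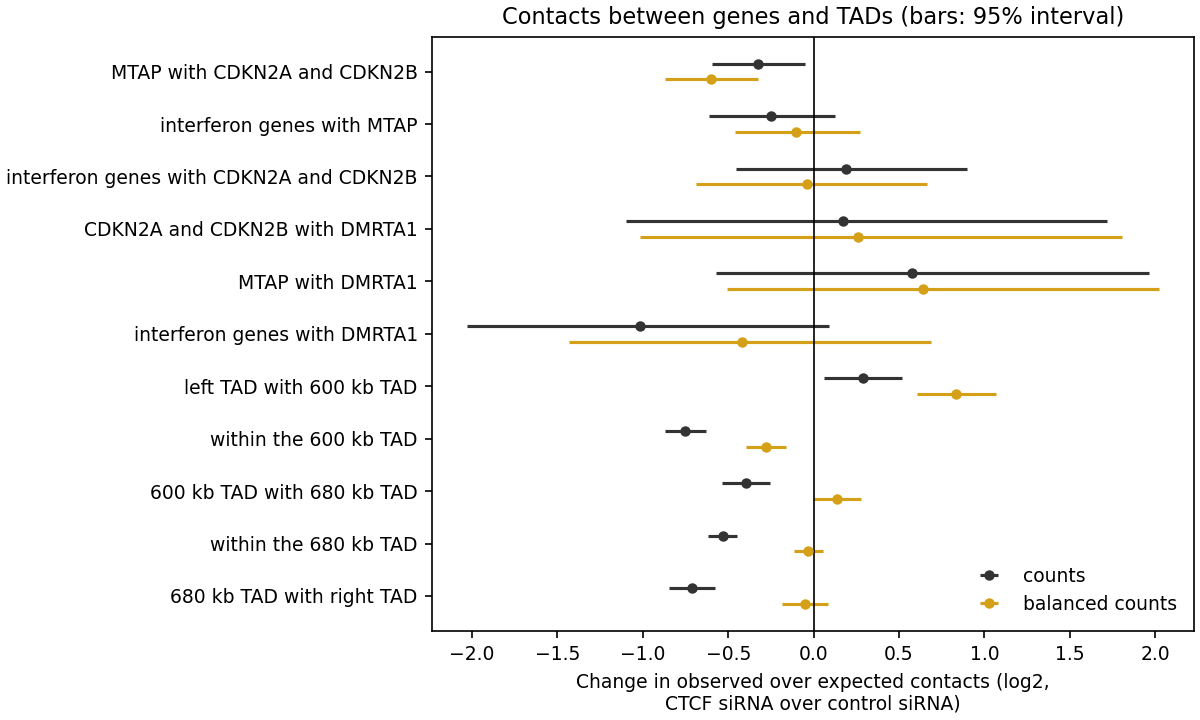
Change in observed over expected contacts (x axis, log2, CTCF siRNA over control siRNA) for the 6 pairs of genes and for the TADs of the control list, from counts (black) and balanced counts (yellow). Bars are exact conditional 95% counting intervals for counts, and the same intervals moved to the balanced value for balanced counts. MTAP with CDKN2A and CDKN2B lies at -0.33 and -0.60, and contacts across the interferon edge (left TAD with the 600 kb TAD) at 0.29 and 0.83.

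Whole TADs had more contacts. Here and below, a bin that holds an edge is counted with the TAD to its right, so that the bin of DMRTA1 lies outside the 680 kb stretch. Across the interferon edge, the part of the left TAD in the region and the 600 kb TAD had 187 contacts in the control map, 0.325 times those expected, and 1075 in the CTCF siRNA map, 0.397 times. The log2 ratio was 0.29 (0.06 to 0.52), and 0.83 (0.61 to 1.06) after balancing. At 58492 places of the same shape over the autosomes, 19.0% rose by at least 0.5 from counts, so a rise of 0.29 does not stand apart. That share is from counts and does not apply to the balanced 0.83, for which none is given. Within the 600 kb TAD, which holds most interferon genes, contacts were 0.649 times those expected in the control map (790 contacts) and 0.385 times in the CTCF siRNA map (2115 contacts), a ratio of -0.75 (-0.87 to -0.63). Of the 2763 autosomal TADs of the control list, 2394 were compared in this way. Among these, 25.1% fell by at least 0.5 and 14.5% fell further than the 600 kb TAD. Balancing left -0.28 (-0.40 to -0.16) for the 600 kb TAD. After balancing, 0% of those TADs fell by at least 0.5, their median was -0.07, and 2.21% lay lower than the 600 kb TAD.

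The 680 kb stretch with MTAP, CDKN2A and CDKN2B, without the DMRTA1 bin, had values as follows. Contacts within it were 1.03 times those expected in the control map (1497 contacts) and 0.710 times in the CTCF siRNA map (4676 contacts), a ratio of -0.53 (-0.62 to -0.45). After balancing the ratio was -0.03 (-0.12 to 0.05), so the fall was not seen after balancing. Contacts between the 600 kb and the 680 kb TAD, across the MTAP edge, had a ratio of -0.40 (-0.54 to -0.25) from counts and 0.13 (-0.01 to 0.28) after balancing. The fall was thus not seen after balancing, and the balanced interval held 0. Contacts from the 680 kb stretch with the DMRTA1 bin and the TAD beyond it fell by 0.71 from counts. After balancing they fell by 0.05, with an interval of -0.19 to 0.09. At places of the same shape, 27.2% fell by at least 0.5 from counts. The parts of the stretch differed in contacts with the bins beyond that of DMRTA1. CDKN2A and CDKN2B, on 18 and 154 contacts, changed by 0.80 (0.09 to 1.59), and 0.99 (0.28 to 1.78) balanced. MTAP changed by 0.37 (-0.03 to 0.80), and 0.74 (0.34 to 1.16) balanced. The bins between CDKN2B and DMRTA1 changed by -1.12 (-1.29 to -0.95), and -0.31 (-0.48 to -0.14) balanced. No share is given for these parts.

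The corners of the TADs, where a TAD's ends meet, were read in blocks of 3 by 3 bins. The ends of the 600 kb TAD had 36 contacts in the control map, 1.59 times those expected (1.11 to 2.20), and 102 in the CTCF siRNA map, 0.918 times (0.749 to 1.11). That is a ratio of -0.79 (-1.35 to -0.20). The ends of the 680 kb TAD had 24 contacts, 1.26 times those expected (0.810 to 1.88), and 137 contacts, 1.45 times (1.22 to 1.72), a ratio of 0.20 (-0.43 to 0.89). After balancing the ratios were -0.59 (-1.16 to -0.0034) and 0.45 (-0.19 to 1.14). The corner of the interferon TAD was thus lower in the CTCF siRNA map from counts, by about as much as the whole 600 kb TAD (-0.75). Its balanced interval, carried over from the counts, ended close to 0. The interval for the corner of the CDKN2A TAD held 0. No share over the autosomes is given for corners.

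**Figure D4:**
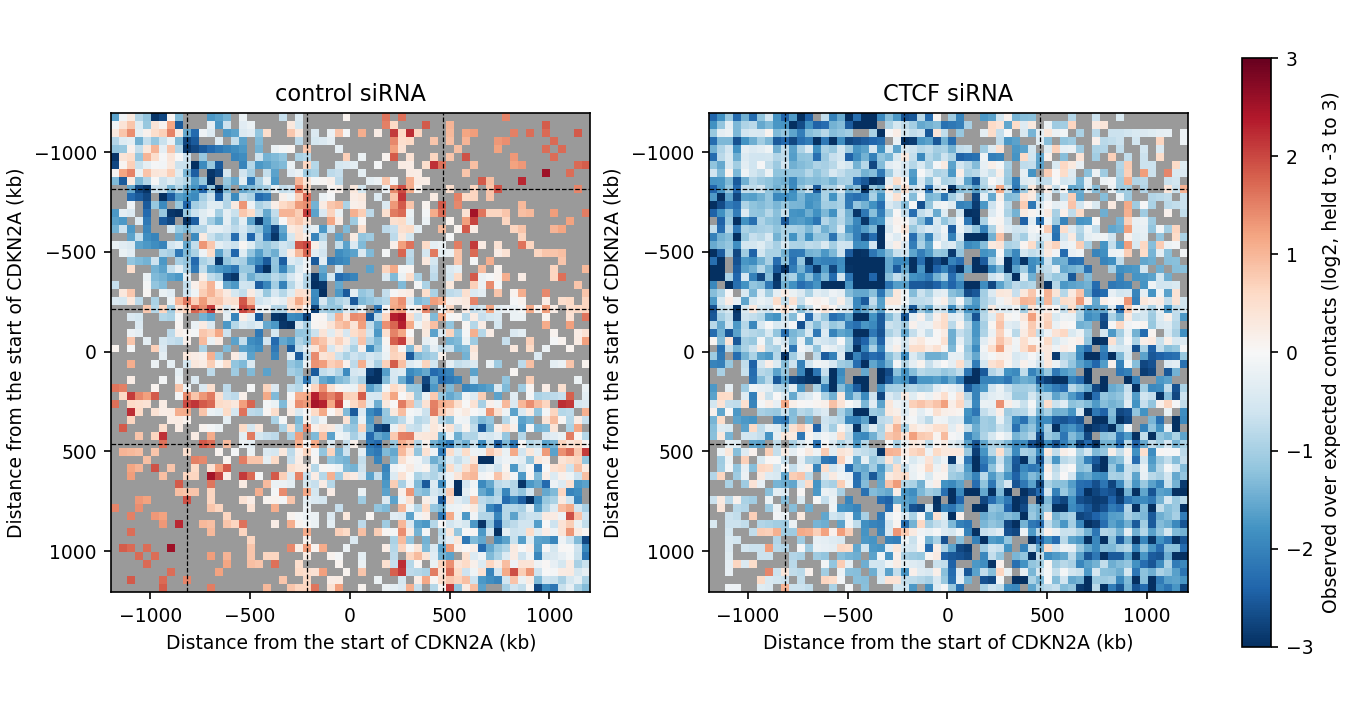
Observed over expected contacts of each pair of bins (log2, from counts, held to -3 to 3, pairs with no contact in grey) in the control siRNA map (left) and the CTCF siRNA map (right), both axes in kb from the start of CDKN2A, with the 3 TAD edges dashed. In the control map, contacts across the interferon edge were 0.325 times those expected, and the red patch to the right of CDKN2A on the rows of MTAP holds 71 contacts with a single bin, 4.16 times those expected.

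Contacts of single genes inside the 680 kb TAD were read bin by bin. From the 4 bins of MTAP, 13 bins of the TAD could be compared, and in 5 of them the interval of the change lay below 0 and in none above. At the same distances over the autosomes, 22.1% of bins had an interval below 0. All 5 were lower also after balancing, but for balanced intervals below 0 no share over the autosomes is given. Balanced intervals lay above 0 in 3 other bins, that of the MTAP edge and 2 ahead of DMRTA1, beside 8.36% of bins over the autosomes. MTAP with the bin of CDKN2B had 58 contacts in the control map, 1.34 times those expected, and 92 in the CTCF siRNA map, 0.477 times. With the bin chr9:22240001-22280000, the control minimum named above, MTAP had 71 contacts, 4.16 times those expected, and 141 contacts, 1.72 times. With the bin of the CDKN2A start MTAP had 87 contacts, 1.24 times those expected, and 423 contacts, 1.35 times. MTAP's contacts with CDKN2B were thus lower in the CTCF siRNA map than in the control map, while for the adjacent CDKN2A bin the interval of the change, -0.21 to 0.48, held 0.

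Of the 5 bin pairs at least 200 kb apart with the most contacts over expected, among 38 with enough contacts, 3 joined MTAP to that same bin. From the bin of the MTAP start there were 20 contacts in the control map, 5.53 times those expected, and 29 in the CTCF siRNA map, 1.65 times. After balancing these were 4.09 and 1.51 times. The fourth pair joined the bin of the CDKN2A start to it, with 6 contacts in the control map, 1.04 times those expected, and 63 in the CTCF siRNA map, 2.36 times. Its ratio of 1.18 had an interval of -0.02 to 2.68. These pairs were picked for their contacts, so the values are a description. The fifth pair joined chr9:21720001-21760000 to chr9:22400001-22440000, across the MTAP edge to the bin before that of DMRTA1, with 5 and 20 contacts, 2.40 and 1.93 times those expected.

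The bins of CDKN2A and CDKN2B had 15 bins of their TAD to compare, with intervals below 0 in 2 and above 0 in 1, beside 18.2% and 12.5% of bins at the same distances over the autosomes, so neither count stands apart. The 2 were at the start of MTAP, where contacts went from 1.92 times those expected (32 contacts) to 1.1 times (84 contacts), and in the next bin, from 1.68 times (34 contacts) to 1.06 times (95 contacts). After balancing, 3 lay above 0, beside 5.5% over the autosomes. The 1 was chr9:22280001-22320000, with 3 contacts, 0.278 times those expected, in the control map and 56, 1.11 times, in the CTCF siRNA map. On its side, DMRTA1 had 13 bins of the TAD with contacts in both maps to compare. Bins of the TAD with no control contact were left out, so a rise in them could not be counted. These had 9 to 15 contacts in the CTCF siRNA map. In 4 of these, all within 200 kb of DMRTA1, the interval lay below 0, beside 9.93% of bins at the same distances over the autosomes, and in none above. After balancing it lay below 0 in 3, beside 3.47%. DMRTA1 with chr9:22280001-22320000 had 16 contacts in each map, 1.75 and 0.396 times those expected. That bin was taken up for its change with CDKN2A and CDKN2B, which rests on 3 control contacts, so these values are a description.

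**Figure D5:**
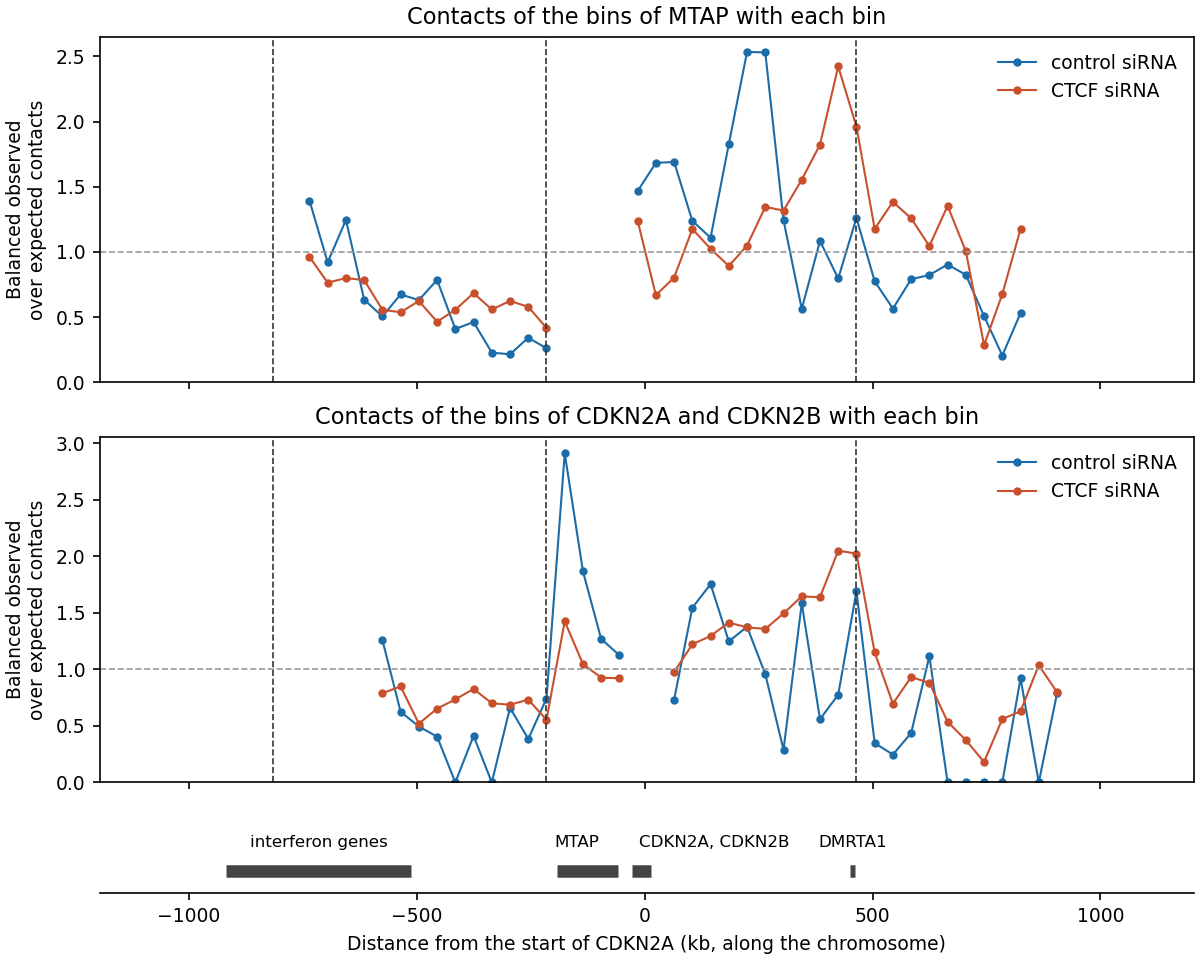
Balanced observed over expected contacts (y axis) of the 4 bins of MTAP (top) and of the bins of CDKN2A and CDKN2B (middle) with each other bin, by distance from the start of CDKN2A in kb, for the control siRNA map (blue) and the CTCF siRNA map (orange), with the TAD edges dashed and the genes below. MTAP's value of 2.53 in the control map at chr9:22240001-22280000 stands at 1.35 in the CTCF siRNA map, whose highest value, 2.42, lies next to the DMRTA1 bin.

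Contacts of the region with distant places were read last. It made 28123 contacts with other chromosomes in the control map and 67754 in the CTCF siRNA map, and 43.6% and 47.3% of the contacts of its bins were on chromosome 9, beside 49.1% and 62.9% for usable bins of the whole chromosome. Windows of 1 Mb were compared where they had at least 20 contacts in each map, on chromosome 9 only beyond 2 Mb from the region, and those with fewer contacts were not examined. Among 47 such windows of chromosome 9, the highest by the lower of its values in the maps was at 102000001-103000000, with 28 contacts, 1.48 times those expected (0.98 to 2.13), and 65 contacts, 1.22 times (0.94 to 1.56). Among 120 such windows of other chromosomes it was, by the same rule, at 128000001-129000000 of chromosome 6, with 20 contacts, 1.58 times (0.97 to 2.44), and 45 contacts, 1.49 times (1.09 to 2.0). Intervals that reach 1 in at least 1 map do not set these windows apart.

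Of 10104 bins that hold the start of a coding gene elsewhere, those of P3H2 on chromosome 3, CPM on chromosome 12 and GBP2 on chromosome 1 had insulation profiles most like that around the CDKN2A start. Pearson correlations were 0.85, 0.83 and 0.81 over 42 values, 21 bins in each of the maps. Neighbouring bins share contacts, and these are the highest of many, so the likeness is a description of shape alone.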

How the data were processed

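Hi-C libraries were made with BglII from LNCaP cells and deposited as 2 samples with control siRNA and 4 with CTCF siRNA. Per the labels and the study's methods, the authors aligned reads to hg19 with Bowtie 1.1.0 within NGSane and HiCUP, with FastQC 0.11.2, SAMtools 1.2 and Picard 1.121, pooled the libraries of each condition, and called TADs by a hidden Markov model on the balance of contacts upstream and downstream of each bin. The deposited contact tables give 1 value for each pair of 40 kb bins, and the deposited TAD lists give positions. At positions 9400001 to 48120000 of every chromosome, the region included, the deposited values were whole counts times factors shared by position. Division by these factors gave whole counts for 100% of values (tolerance 0.0101 or 0.05% of the value), against 2.28% and 2.40% if values fell at random. The factors in the region ran from 0.612 to 1.69 in the control map and from 0.475 to 1.48 in the CTCF siRNA map. The study's methods name bias offsets from HiCorrector and mapability tracks, used when contacts were assessed. They do not say whether the factors come from these, so the origin of the factors is not known here. The recovered counts, 26174669 contacts in the control map and 87657882 in the CTCF siRNA map, were used throughout in place of the values as deposited.

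Bins under 10% of the chromosome median in either map were left out. Expected contacts are the mean over usable pairs at the same distance on chromosome 9. Insulation values needed 50% usable pairs, and a change of at least 0.5 on the log2 scale was counted. Intervals from counts are exact Poisson or conditional binomial (Clopper-Pearson) at 95%. Balanced values carry the intervals of the counts, moved to the balanced value, which are not exact for them. TAD edges at most 100 kb apart were joined, and edges within 40 kb were called shared. Balancing took 60 rounds. Genes are from GENCODE 44 mapped to GRCh37, whose chromosome ends fit the bins of all 22 autosomes. The main text names MTAP, CDKN2A, CDKN2B, DMRTA1, a list of 16 interferon genes, all TAD edges, 5 bin pairs, the top distant windows and 3 genes of like profile. The genes, lists and region were chosen with earlier results of these data known. Balanced values of TADs, bin pairs and corners were added after seeing the data. The other alternatives for contacts within and between TADs were not planned either. Work was done in Python 3.11.15 with NumPy 2.4.6, SciPy 1.17.1 and Numba 0.67.0, and the scripts were tested on simulated data.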

Additional observations from a re-analysis of the deposited data

How the results depend on the processing

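Of 96 alternatives tried for 21 results, 71 stayed near the reported value (within its counting interval, within 1.5 times for counts of TADs and edges, or within a rank interval for the median of the region), 24 moved further and 1, a change of at least 0.5, turned its direction. The 1 was MTAP with DMRTA1, on 7 and 51 contacts, which went from 0.58 to -0.29 with the values as deposited, position factors left in. Counting smaller changes, the sign differed from that reported in 10 alternatives, 2 of them for the median of the region, which lay near 0. The other 7 were the values below at the DMRTA1 edge, CDKN2A and CDKN2B with flanks of 800 kb and between the TADs after balancing, the interferon genes with CDKN2A and CDKN2B at -0.26 as deposited and -0.04 after balancing, and CDKN2A and CDKN2B with DMRTA1 at -0.43 as deposited. Coverage of the region was 0.996, 1.01 and 0.955 times the median in the control map and 0.490, 0.796 and 0.774 times in the CTCF siRNA map with the values as deposited, with contacts to other chromosomes included, and against the median of the autosomes, so it was lower in the CTCF siRNA map each time. With flanks of 200 kb the insulation change was 1.89 at the interferon edge, -0.79 at CDKN2A and -0.55 at CDKN2B. With flanks of 800 kb it was 0.47 at the MTAP edge, 0.12 at the DMRTA1 edge, 0.38 at the MTAP start, 0.13 at CDKN2A and 0.31 at CDKN2B. The number of bins with a fall of at least 0.5 was 2 as reported, 10 with flanks of 200 kb, 1 with 800 kb, 0 with balanced counts and 4 without contacts between neighbouring bins, while bins with a rise numbered 9 to 12. With the values as deposited, log2 ratios were -0.81 for the interferon genes with MTAP, -0.96 for MTAP with CDKN2A and CDKN2B, -1.40 within the 600 kb TAD, -1.0 within the 680 kb TAD and -0.85 between these TADs. With balanced counts they were -0.60 for MTAP with CDKN2A and CDKN2B, -0.28 within the 600 kb TAD, -0.033 within the 680 kb TAD and 0.13 between them. With the decay of all autosomes the ratio within the 680 kb TAD was -0.44. The cause of these shifts was not tested. The rises at the interferon edge, from 1.11 to 1.89, and at the MTAP edge, from 0.47 to 1.08, were above 0 under every setting tried. No paired analysis was possible because each condition was deposited as 1 pooled map, and for the same reason no library could be left out. The control map has 26174669 contacts and the CTCF siRNA map 87657882, and intervals of the pairs of genes cover the counting error of both.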
